A study of Homo sapiens with 6 samples.

Results

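A set of 10 genes that encode regulators of alternative splicing was followed in A549 cells after knockdown of the long noncoding RNA PLANE. The genes were PTBP1, MBNL1, MBNL2, RBFOX2, ESRP1, ESRP2, QKI, CELF1, TIA1 and TRA2B, chosen by name. All 10 were found among the 34957 gene identifiers of the tables, and they held 162 of the 180253 transcripts. A549 is an established human lung adenocarcinoma cell line. The cells were transfected for 48 h with a negative control siRNA (si-ctrl) or with one of a pair of siRNAs against PLANE (si-PLANE.1 and si-PLANE.2), and each of the 3 groups held 2 RNA-seq libraries. The labels give the replicate numbers 3 and 4 to si-PLANE.2, whereas the other groups have 1 and 2. The libraries of a group are described as experimental repeats, and nothing says whether they came from separate cultures, so p-values measure only the spread between these libraries, which may be technical. The transcript PLANE was not analysed here, and its knockdown could therefore not be checked in these values.

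Alternative splicing joins the exons of a gene in more than one combination, and proteins that bind the pre-mRNA near an exon raise or lower the share of transcripts that keep it. PTBP1 is mainly a repressor that binds pyrimidine-rich tracts. The muscleblind proteins MBNL1 and MBNL2, RBFOX2, QKI, CELF1 and TIA1 act as repressors or activators depending on where they bind, and TRA2B promotes exon inclusion through purine-rich enhancers. ESRP1 and ESRP2 are the regulators known for epithelial splicing programmes. Many of these genes carry exons that their own proteins control, so that both the amount and the form of the mRNA are of interest.

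The exons shown here are annotated cassette exons of the members, kept in some transcripts and skipped in others, whose inclusion is described with the transcripts of each gene. Positions are on GRCh37 (hg19), with exon structures from GENCODE version 44 lifted to that build, and the sequences were read from that genome in the direction of the gene. Capitals mark the exon and lower-case letters the 20 intron bases on each side, except for TRA2B. The 34-base exon of PTBP1 (chr19:807869-807902, plus strand) is shown because its inclusion was higher after si-PLANE.2, and its length is not a multiple of 3, so that skipping it shifts the reading frame. The 78-base exon (chr19:805492-805569) lies upstream in the same gene and keeps the frame.
PTBP1 34-base exon: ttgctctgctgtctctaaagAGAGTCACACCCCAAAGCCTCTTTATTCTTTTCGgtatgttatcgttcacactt
PTBP1 78-base exon: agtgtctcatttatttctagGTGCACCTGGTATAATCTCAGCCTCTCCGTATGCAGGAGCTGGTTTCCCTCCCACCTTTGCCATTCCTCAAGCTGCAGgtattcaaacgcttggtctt

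The muscleblind genes share a pair of small exons, which are set side by side because their inclusion was lower after si-PLANE.2 in 3 of the 4 cases. Both MBNL2 cases rest mainly on the same including transcript, MBNL2-206. The 54-base exons of MBNL1 (chr3:152164493-152164546, plus strand) and MBNL2 (chr13:98009050-98009103, plus strand) matched at 45 of 54 bases (83.3%), and the 36-base exons (chr3:152173331-152173366 and chr13:98017390-98017425) at 31 of 36 bases (86.1%).
MBNL1 54-base exon: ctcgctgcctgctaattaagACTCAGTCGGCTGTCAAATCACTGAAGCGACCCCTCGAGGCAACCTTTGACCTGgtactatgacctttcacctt
MBNL2 54-base exon: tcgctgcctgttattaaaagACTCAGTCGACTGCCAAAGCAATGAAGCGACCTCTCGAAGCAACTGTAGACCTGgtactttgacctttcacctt
MBNL1 36-base exon: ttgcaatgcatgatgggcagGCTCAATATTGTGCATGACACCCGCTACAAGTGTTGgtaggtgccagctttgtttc
MBNL2 36-base exon: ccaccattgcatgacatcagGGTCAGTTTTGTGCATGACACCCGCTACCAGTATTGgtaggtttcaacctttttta

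The 40-base exon of RBFOX2 (chr22:36152152-36152191, minus strand) is shown because its inclusion did not overlap between si-PLANE.2 and the other libraries. The 276-base exon of TRA2B (chr3:185649365-185649640, minus strand) is known as a poison exon, since it brings a stop codon into the mRNA. For it the intron bases are followed by the 81 bases, in capitals, that the annotated transcript TRA2B-205 reads up to and with that stop codon.
RBFOX2 40-base exon: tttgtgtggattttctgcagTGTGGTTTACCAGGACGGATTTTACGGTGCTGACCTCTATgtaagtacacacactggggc
TRA2B 276-base exon, start: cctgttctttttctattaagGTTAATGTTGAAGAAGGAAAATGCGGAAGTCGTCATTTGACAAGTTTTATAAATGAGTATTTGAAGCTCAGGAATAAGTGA

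The libraries held between 10572151 and 20778431 expected counts. The si-PLANE.2 libraries stood apart: their gene values correlated at 0.854 to 0.876 with the other libraries (Pearson, log2(FPKM + 1)), against 0.963 to 0.973 between si-ctrl and si-PLANE.1. Genes whose histone mRNAs usually carry no poly(A) tail summed to 188 to 198 FPKM in si-PLANE.2, 2315 to 2934 in si-PLANE.1 and 3287 to 3974 in si-ctrl, over 15 of 27 listed genes. The median of these genes was 1.14 to 1.24 FPKM in si-PLANE.2, 173 to 229 in si-PLANE.1 and 229 to 249 in si-ctrl. HIST1H2BK alone gave 82.55 and 85.44 FPKM of the si-PLANE.2 sums. The methods name both poly(A) isolation and rRNA removal without saying which library had which. What si-PLANE.2 did to the cells and how its libraries were prepared therefore cannot be told apart. Genes that mark A549 were all expressed (summed level 12990 to 28950 FPKM over 10 genes), and CDKN2A and CDKN2B, deleted in this line, summed to at most 0.48 FPKM. Of 4 leukocyte markers, 3 had a mean below 1 FPKM in every group, whereas CD68 was at 18.25 to 62.96 FPKM. The 5 fibroblast markers summed to 3.8 to 20.7 FPKM. After si-PLANE.2, edgeR called 64.1% of all genes tested. Of the markers tested, 5 of 6 mesenchymal markers were lower and 1, VIM, was higher (log2 fold change 0.31, edgeR adjusted p = 0.0444). The 8 mesenchymal markers listed summed to 996.7 to 1027 FPKM in si-ctrl and 993.1 to 1072 in si-PLANE.2. Of the others, 3 of 3 fibroblast markers were lower, and 9 of 10 A549 markers were higher. CD68 was also higher (log2 fold change 1.06, edgeR adjusted p = 0.000477). Of 7 epithelial markers, 2 were higher and 3 lower. The part of these markers in the values of the members was not tested.

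Expected counts were summed over the transcripts of each gene and compared with edgeR's quasi-likelihood test, for genes whose mean over the compared libraries reached 0.5 FPKM. FPKM scales the count to transcript length and library depth, and gene levels below are sums of FPKM over transcripts. A gene was called at an adjusted p (Benjamini-Hochberg over all genes tested) under 0.05. After si-PLANE.1, 0 of the 9 members tested were called, where 0.0344% of all 14535 genes tested were (0.00688% higher and 0.0275% lower). One member, PTBP1, had an unadjusted p under 0.05, and DESeq2 also called 0 members. After si-PLANE.2, 6 of 8 members tested were called, 5 lower and 1 higher, against 64.1% of all 14168 genes tested (31.8% higher and 32.3% lower). Of all genes called, 49.7% were higher in counts, 37.1% on FPKM and 28.6% on TPM. The median log2 fold change of the 8 members was -0.73, beside -0.03 over all genes tested. In bulk RNA, fewer cells that express a gene and less of its RNA per cell cannot be told apart.

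**Figure D1:**
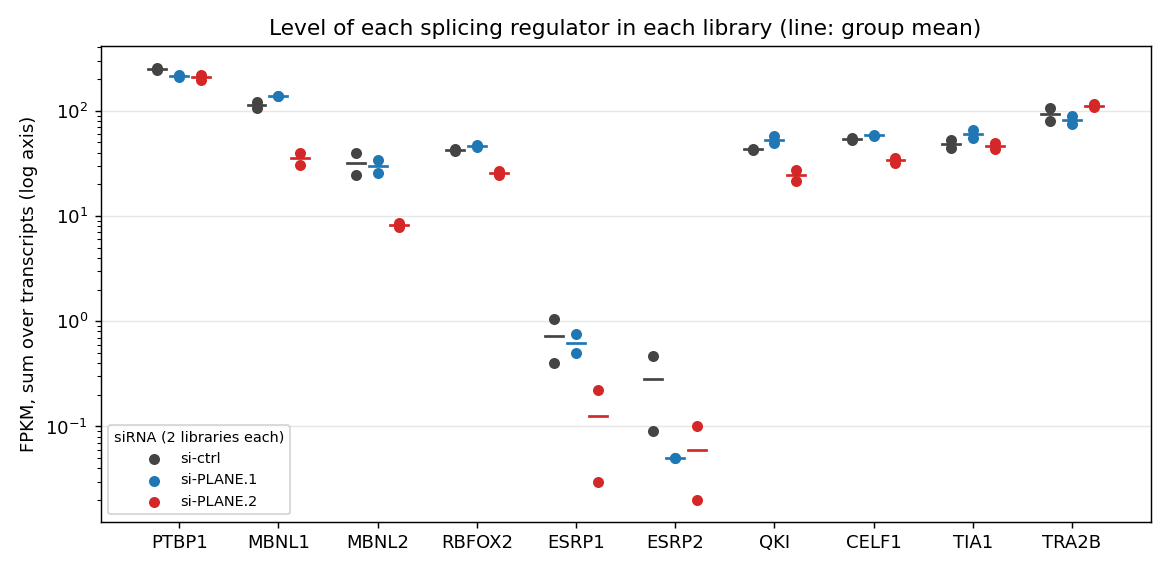
Level of each of the 10 genes in each of the 6 libraries, as FPKM summed over transcripts on a log axis, with points for libraries and a short line for the group mean. MBNL1, MBNL2, RBFOX2, QKI and CELF1 are lower in both si-PLANE.2 libraries than in every other library, and ESRP1 and ESRP2 lie near or under 1 FPKM throughout.

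PTBP1 (ENSG00000011304, chr19:797075-812327, plus strand) was the most abundant member. Its level in FPKM was 242 and 257 in the si-ctrl libraries, 217 and 209.7 after si-PLANE.1, and 196 and 219 after si-PLANE.2. The FPKM sums of both siRNA groups thus lay below those of si-ctrl. Its gene count after si-PLANE.1 had a log2 fold change of -0.42 ± 0.13 (SE, n = 2 and 2, edgeR adjusted p = 0.377). After si-PLANE.2 the gene count was 1.32-fold higher (log2 fold change 0.40 ± 0.09, edgeR adjusted p = 0.00737), while limma on log2(FPKM + 1) gave -0.27 (adjusted p = 0.0732) and on TPM -0.43 (adjusted p = 0.0208). The direction for PTBP1 therefore depended on the unit, and the count-based call was lost without either si-PLANE.2 library (adjusted p = 0.0702 and 0.0959). The mean length of PTBP1 transcripts, weighted by FPKM, was 1484 to 1625 bases in si-ctrl and si-PLANE.1 and 2179 and 2031 bases in si-PLANE.2.

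The transcripts of PTBP1 moved apart after si-PLANE.2. PTBP1-203, a full-length coding transcript with both exons shown above, stood at 17.8 and 16.4 FPKM in si-ctrl, 13.3 and 14.6 in si-PLANE.1 and 46.5 and 46.0 in si-PLANE.2. It was 3.29-fold higher after si-PLANE.2 (log2 fold change 1.72 ± 0.11, edgeR adjusted p = 0.00658). PTBP1-206, annotated as retaining an intron, was at 76.2 and 85.1 FPKM among si-ctrl libraries, 65.5 and 63.8 in si-PLANE.1 and 38.2 and 33.0 in si-PLANE.2, where it was lower (log2 fold change -0.86 ± 0.17, adjusted p = 0.0344). The long transcript rose while this short one fell. PTBP1-209, listed at 0 in both si-ctrl libraries, reached 7.68 and 18.5 FPKM in si-PLANE.2. Its mean was at least 31.1-fold higher against a floor of 3 counts per library. PTBP1-213 and PTBP1-205 were likewise at 0 in si-ctrl, with means at least 10.7-fold and 6.02-fold higher. By library these lower bounds were 18.3 and 43.9 for PTBP1-209, 9.64 and 11.8 for PTBP1-213 and 8.11 and 3.93 for PTBP1-205. PTBP1-207, a transcript annotated for nonsense-mediated decay, the pathway that degrades mRNAs with an early stop codon, had a mean FPKM of 0.405 in si-ctrl against 2.92 in si-PLANE.2 and also passed the test (adjusted p = 0.0416).

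MBNL1 (ENSG00000152601, chr3:151961617-152183569, plus strand) and MBNL2 (ENSG00000139793, chr13:97873688-98046374, plus strand), which in other tissues switch fetal to adult exon choices, had the largest falls after si-PLANE.2 among the 8 members tested. MBNL1 was at 106 and 121 FPKM among si-ctrl libraries, 139 and 138 in si-PLANE.1 and 30.7 and 39.9 in si-PLANE.2. MBNL2 was at 24.4 and 39.6 FPKM among si-ctrl libraries, 25.7 and 34.1 in si-PLANE.1 and 7.89 and 8.52 in si-PLANE.2. In neither gene did the si-PLANE.2 libraries overlap with the others. The gene count of MBNL1 was 2.29-fold lower (log2 fold change -1.20 ± 0.10, edgeR adjusted p = 4.18e-05) and that of MBNL2 3.43-fold lower (-1.78 ± 0.17, adjusted p = 9.05e-05). After si-PLANE.1 the log2 fold changes were 0.20 ± 0.13 for MBNL1 (edgeR adjusted p = 0.638) and -0.21 ± 0.22 for MBNL2 (adjusted p = 0.759).

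The decrease was uneven over the transcripts of both genes. MBNL1-210, annotated without a defined coding sequence, was at 33.9 and 49.5 FPKM among si-ctrl libraries, 51.4 and 46.2 in si-PLANE.1 and 1.59 and 1.83 in si-PLANE.2, where it was lower (log2 fold change -4.32 ± 0.29, edgeR adjusted p = 0.00679). It led the gene in si-ctrl with 36.6% of the FPKM and held 4.88% in si-PLANE.2, where MBNL1-204 led with 16.7%. MBNL2-206, annotated for nonsense-mediated decay, was at 12.4 and 24.5 FPKM among si-ctrl libraries, 13.6 and 18.3 in si-PLANE.1 and 1.45 and 1.15 in si-PLANE.2 (log2 fold change after si-PLANE.2 -3.54 ± 0.45, adjusted p = 0.015). Its share of MBNL2 was 56.2% in si-ctrl and 15.9% in si-PLANE.2. The coding transcript MBNL2-201 also fell, by less (-0.87 ± 0.16, edgeR adjusted p = 0.0284), as did MBNL1-211 (-1.60 ± 0.20, adjusted p = 0.0141) and MBNL1-213 (-3.50 ± 0.77, adjusted p = 0.0424).

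CELF1 (ENSG00000149187, chr11:47487485-47587121, minus strand) binds GU-rich RNA and opposes muscleblind proteins at several exons. It was at 52.6 and 55.5 FPKM among si-ctrl libraries, 57.9 and 59.2 in si-PLANE.1 and 32.0 and 35.8 in si-PLANE.2. The si-PLANE.2 libraries lay under all others, and its gene count was 1.66-fold lower there (log2 fold change -0.73 ± 0.09, edgeR adjusted p = 0.000284). After si-PLANE.1 the value was -0.05 ± 0.12 (adjusted p = 0.907). Of 9 CELF1 transcripts tested for si-PLANE.2, CELF1-204 alone was called, lower, at 20.3 and 20.02 FPKM in si-ctrl against 9.99 and 9.26 (adjusted p = 0.0173 in edgeR).

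RBFOX2 (ENSG00000100320, chr22:36134783-36424872, minus strand), the member that recognises GCAUG, was at 41.9 and 43.5 FPKM among si-ctrl libraries, 47.6 and 45.4 in si-PLANE.1 and 24.6 and 26.9 in si-PLANE.2. Its gene count was 1.65-fold lower after si-PLANE.2 (log2 fold change -0.72 ± 0.09, edgeR adjusted p = 0.000395), and -0.01 ± 0.12 after si-PLANE.1 (adjusted p = 0.978). RBFOX2-205, the leading transcript in every group, fell with the gene (-0.71 ± 0.10, adjusted p = 0.0181 in edgeR). RBFOX2-211, which retains an intron, went from 1.17 and 1.44 FPKM in si-ctrl to 0.12 and 0.13 in si-PLANE.2 (edgeR adjusted p = 0.0297).

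QKI (ENSG00000112531, chr6:163835032-163999624, plus strand), an RNA-binding protein of the STAR family that also regulates circular RNA formation, was at 43.8 and 42.3 FPKM among si-ctrl libraries, 57.2 and 49.2 in si-PLANE.1 and 21.4 and 27.3 in si-PLANE.2. Its gene count was 1.78-fold lower after si-PLANE.2 (log2 fold change -0.83 ± 0.10, edgeR adjusted p = 0.000228). After si-PLANE.1 both libraries lay above both si-ctrl libraries in FPKM, and the gene count gave 0.22 ± 0.12 (edgeR adjusted p = 0.558). QKI-205, a minor coding transcript at 1.19 and 1.45 FPKM in si-ctrl and 0.39 and 0.37 in si-PLANE.2, was its only transcript called (edgeR adjusted p = 0.0395, of 6 tested). QKI-205 was not called by limma on FPKM or by edgeR with no minimum FPKM.

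The transcripts that led CELF1, RBFOX2 and QKI in si-ctrl had negative log2 fold changes after si-PLANE.2, as their genes did. Some less abundant ones had positive values, none of which passed in edgeR. CELF1-201 led CELF1 in si-PLANE.2, at a mean of 10.02 FPKM (9.04 in its lower library) against 5.24 to 7.09 in the other libraries. It did not pass in edgeR (log2 fold change 1.00, edgeR adjusted p = 0.056). DESeq2, which called 18928 of all 56791 transcripts tested, called CELF1-201 higher. RBFOX2-208, which holds the 40-base exon, was at 6.71 and 6.35 FPKM among si-ctrl libraries and at 7.31 and 8.14 after si-PLANE.2 (0.54, edgeR adjusted p = 0.215), beside the lower level of RBFOX2-205, which skips it. QKI-210 led QKI in every group, with 19.6 and 21.1 FPKM in si-ctrl and 6.66 and 12.2 after si-PLANE.2 (-0.81, edgeR adjusted p = 0.169).

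TIA1 (ENSG00000116001, chr2:70436576-70475792, minus strand), which binds U-rich stretches beside weak splice sites, was at 43.9 and 52.5 FPKM among si-ctrl libraries, 55.2 and 65.9 in si-PLANE.1 and 43.2 and 49.0 in si-PLANE.2. The libraries of si-PLANE.2 overlapped with si-ctrl, and the log2 fold change of its gene count was 0.07 ± 0.10 after si-PLANE.2 (edgeR adjusted p = 0.541, -0.06 on FPKM in limma) and 0.17 ± 0.13 after si-PLANE.1 (adjusted p = 0.696). TIA1-204, a short coding transcript, was at 5.72 and 5.37 FPKM among si-ctrl libraries, 1.13 and 1.12 in si-PLANE.1 and 0.41 and 0.28 in si-PLANE.2, the only TIA1 transcript of 17 called after si-PLANE.2 (log2 fold change -3.64 ± 0.60, adjusted p = 0.0237 in edgeR).

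TRA2B (ENSG00000136527, chr3:185632346-185655891, minus strand) was at 106 and 80.5 FPKM among si-ctrl libraries, 88.9 and 75.3 in si-PLANE.1 and 108 and 116 in si-PLANE.2. Its gene count gave log2 fold changes of -0.27 ± 0.14 after si-PLANE.1 (edgeR adjusted p = 0.569) and -0.16 ± 0.11 after si-PLANE.2 (adjusted p = 0.227), the latter with the opposite sign on FPKM (0.27, limma adjusted p = 0.18). The total hid transcripts that moved in opposite directions. TRA2B-212, annotated as retaining an intron, was at 4.61 and 4.55 FPKM among si-ctrl libraries, 8.09 and 7.25 in si-PLANE.1 and 20.7 and 27.7 in si-PLANE.2, 6.56-fold higher after si-PLANE.2 (log2 fold change 2.71 ± 0.30, edgeR adjusted p = 0.0118). Of the longer intron-retaining transcripts, TRA2B-213 went from 8.38 and 8.02 FPKM in si-ctrl to 0.58 and 0.55 in si-PLANE.2 (log2 fold change -3.59 ± 0.20, edgeR adjusted p = 0.00645). TRA2B-214 (-2.15 ± 0.24, adjusted p = 0.0121) and TRA2B-206 (-5.30 ± 0.74, adjusted p = 0.0177) also fell in edgeR. TRA2B-205, which holds the poison exon, was at 1.68 and 0 FPKM among si-ctrl libraries, 6.03 and 2.42 in si-PLANE.1 and 19.1 and 18.7 in si-PLANE.2. Its si-PLANE.2 libraries lay far above the others. The difference did not pass in edgeR (log2 fold change 4.80 ± 1.49, edgeR adjusted p = 0.0843), although limma on FPKM called TRA2B-205 higher.

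ESRP1 (ENSG00000104413, chr8:95653302-95719694, plus strand) and ESRP2 (ENSG00000103067, chr16:68262936-68272005, minus strand) were at the edge of detection in these libraries. ESRP1 was at 1.05 and 0.4 FPKM among si-ctrl libraries, 0.5 and 0.75 in si-PLANE.1 and 0.03 and 0.22 in si-PLANE.2, which were 12 and 18, 16 and 20, and 1 and 3 counts. ESRP2 was at 0.47 and 0.09, 0.05 and 0.05, and 0.1 and 0.02 FPKM, from 1 to 4 counts per library. ESRP1 was tested only for si-PLANE.1 (log2 fold change 0.54 ± 0.49, edgeR adjusted p = 0.724), and ESRP2 in neither comparison, since its mean lay under 0.5 FPKM. The ratio of summed counts of si-PLANE.2 over si-ctrl, per count in genes, was 0.0957 for ESRP1 (95% exact binomial interval 0.0245 to 0.272) and 0.513 for ESRP2 (0.128 to 1.88), intervals that cover counting error only. With no minimum FPKM, ESRP1 was called lower after si-PLANE.2 in edgeR. Of 10 epithelial markers, 4 had a mean under 1 FPKM in each group, and of 8 mesenchymal markers 2 did.

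**Figure D2:**
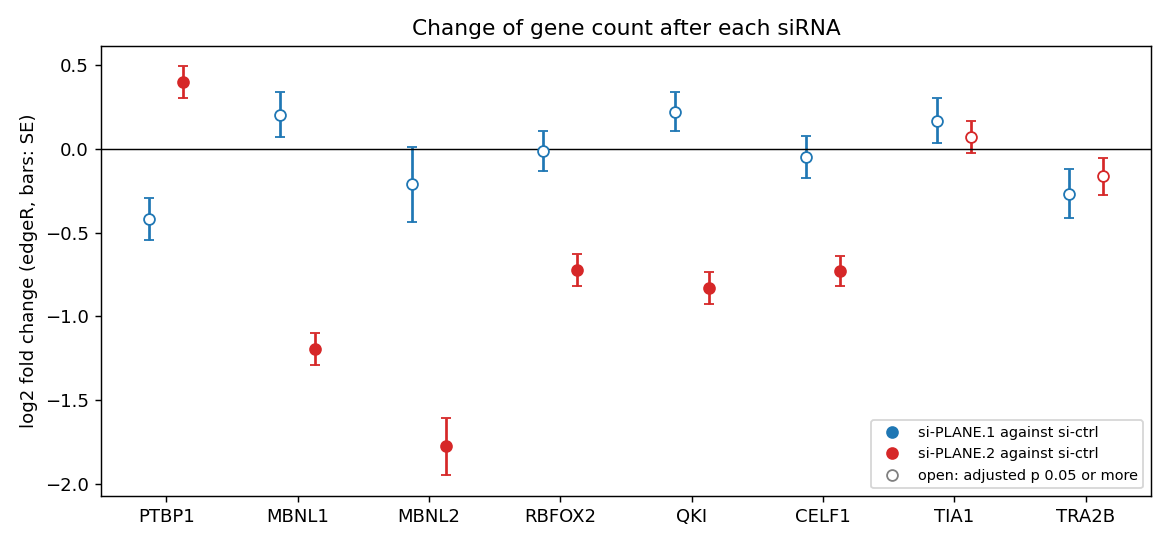
Log2 fold change of the gene count (edgeR, bars are SE) for the 8 members tested in both comparisons, si-PLANE.1 in blue and si-PLANE.2 in red against the same 2 si-ctrl libraries. No si-PLANE.1 point is filled, and 6 of the 8 si-PLANE.2 points are, of which PTBP1 alone is above 0 and reverses its sign on FPKM.

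Because both siRNAs were compared with the same si-ctrl libraries, the siRNA groups were also compared with each other in a fit of all 6 libraries. In that fit 6 of 8 members tested were called, 5 lower and 1 higher after si-PLANE.2 than after si-PLANE.1, where 64.4% of all 14440 genes tested were (33.4% lower and 31.1% higher). MBNL2 (log2 difference -1.56 ± 0.21, edgeR adjusted p = 0.000259), MBNL1 (-1.40 ± 0.11, 1.28e-05), QKI (-1.05 ± 0.10, 2.93e-05), RBFOX2 (-0.71 ± 0.10, 0.000297) and CELF1 (-0.68 ± 0.10, 0.000404) were lower after si-PLANE.2. PTBP1 was higher in counts (0.82 ± 0.11, edgeR adjusted p = 0.000181) but not on FPKM (-0.04, limma adjusted p = 0.743) or TPM (-0.28, limma adjusted p = 0.0844). TIA1 (-0.09 ± 0.11) and TRA2B (0.11 ± 0.12) did not pass the test in edgeR, although limma called TIA1 lower on TPM (-0.62, adjusted p = 0.0076) and TRA2B higher on FPKM (0.45, adjusted p = 0.049).

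At the level of single transcripts, 0 of 86 member transcripts tested passed after si-PLANE.1 in edgeR, as did 0% of all 57625 transcripts tested. At an unadjusted p under 0.05 there were 7 member transcripts, and DESeq2 called 2, MBNL1-201 and PTBP1-201, both lower. PTBP1-201 went from 51.7 and 53.7 FPKM in si-ctrl to 26.4 and 34.6 in si-PLANE.1, without overlap, whereas MBNL1-201 was at 0 and 4.68 in si-ctrl and at 0 in both si-PLANE.1 libraries. After si-PLANE.2, 20 of 85 member transcripts passed, 6 higher and 14 lower, against 25.6% of all 56791 transcripts tested (12.9% higher and 12.7% lower). Of the 6 higher ones, 5 belonged to PTBP1 and 1 to TRA2B. With no minimum FPKM, 16 of 125 member transcripts passed in edgeR, where 11824 of all 109630 transcripts tested did. PTBP1-205, PTBP1-206, PTBP1-207, MBNL2-201, QKI-205 and RBFOX2-211 were then no longer called. Without either si-PLANE.2 library no transcript passed, member or other, so the transcript calls rest on having both.

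**Figure D3:**
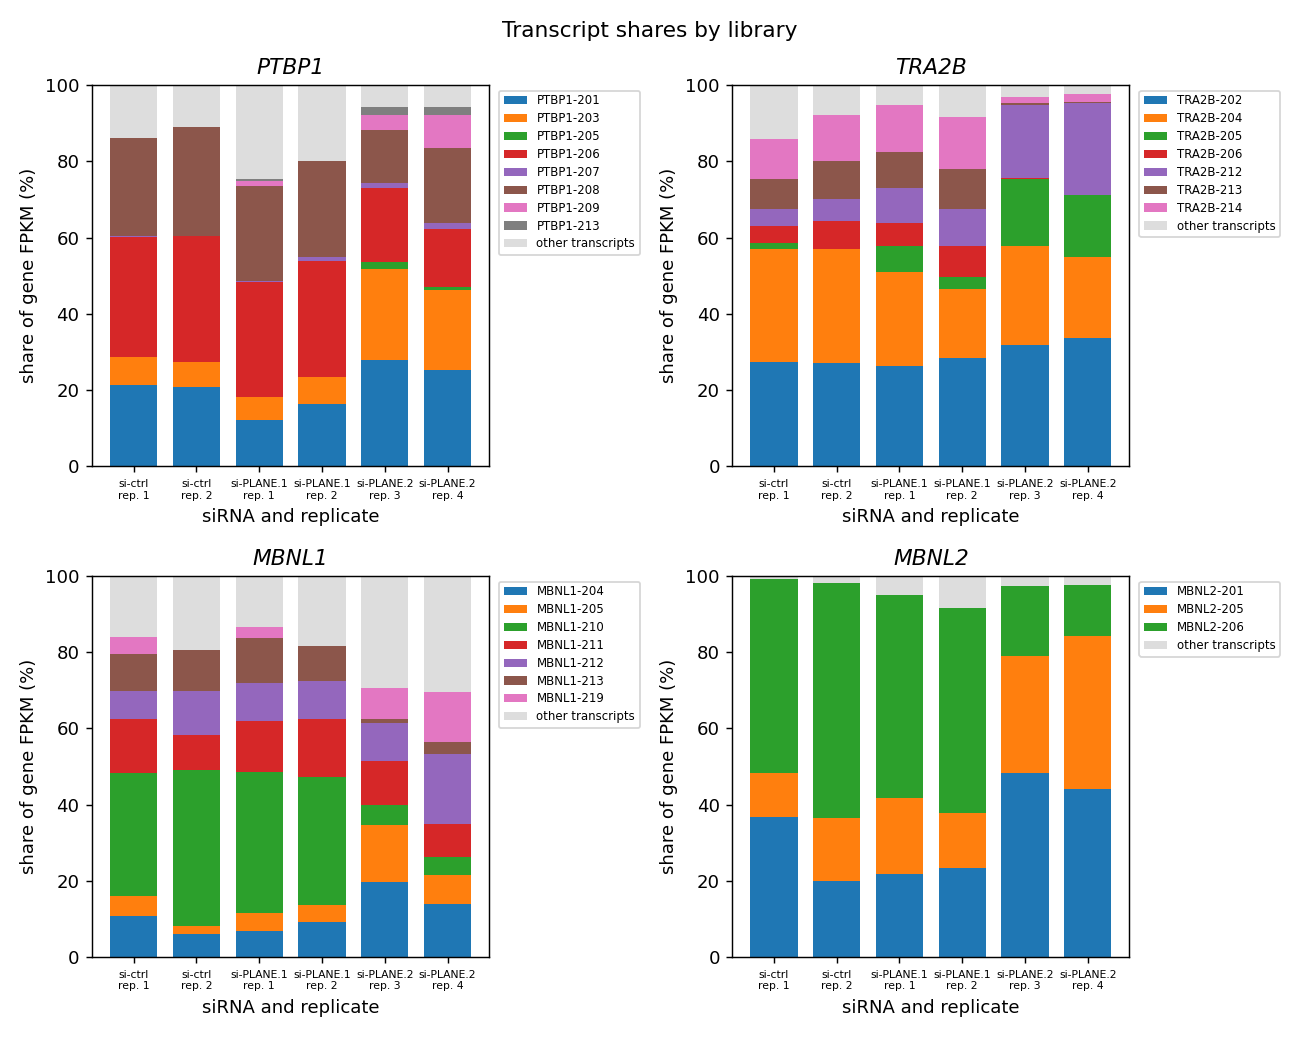
Share of each gene's FPKM held by its transcripts in each of the 6 libraries, for PTBP1, TRA2B, MBNL1 and MBNL2, with transcripts under 10% in every group that also missed the test pooled in grey. The si-PLANE.2 bars hold more PTBP1-203, TRA2B-205 and TRA2B-212 and less PTBP1-206, MBNL1-210 and MBNL2-206 than the other bars.

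Whether the transcripts of one gene moved apart from each other was tested with edgeR's diffSpliceDGE on transcript counts. After si-PLANE.1, 0 of 8 members passed (0.931% of all 10312 genes tested did). RBFOX2 had an unadjusted p under 0.05 (0.00296, adjusted p = 0.152 in edgeR), and limma's diffSplice on FPKM also called 0 members. After si-PLANE.2, 6 of 8 members passed, where 56.1% of all 10129 genes tested did. These were PTBP1 (edgeR adjusted p = 1.53e-08), TRA2B (2.19e-05), RBFOX2 (0.002), MBNL2 (0.00425), TIA1 (0.011) and MBNL1 (0.0233). QKI (edgeR adjusted p = 0.1) and CELF1 (0.0729) did not. TRA2B and TIA1, whose totals did not pass, were thus among those whose transcripts shifted. On simulated counts this test made more false calls than its threshold allows. Limma's diffSplice on FPKM called all 8 members, where it called 6246 of all 10129 genes tested. Without either si-PLANE.2 library, which leaves a lone library in that group, fewer members and fewer of all genes tested were called.

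Exon inclusion was computed as the FPKM of transcripts that keep an exon, as a percent of those that keep or skip it, and is given as a description with no test. Of the PTBP1 exons, the 34-base exon was included at 55.8% and 49.3% in si-ctrl, 51.3% and 50.6% in si-PLANE.1 and 75.4% and 67.7% in si-PLANE.2. The si-PLANE.2 libraries lay above the others, and the difference between the si-PLANE.2 and si-ctrl means, 19.0 points, was 7.03 points when counts were used. All transcripts that keep this exon differ in length from the annotation, so it has no value over transcripts of equal length. The 78-base exon was included at 60.1% and 61.5% in si-ctrl, 71.0% and 66.2% in si-PLANE.1 and 56.1% and 61.4% in si-PLANE.2, and its si-PLANE.2 difference changed sign with counts (-2.02 points on FPKM, 14.4 on counts). Over transcripts of equal length its means were 98.9% in si-ctrl and 99.7% in si-PLANE.2, so its level also depended on the transcripts used.

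The small MBNL2 exons gave the widest differences. The MBNL2 54-base exon was at 57.3% and 74.0% in si-ctrl, 66.2% and 64.2% in si-PLANE.1 and 26.5% and 22.5% in si-PLANE.2. The MBNL2 36-base exon was at 51.6% and 63.6%, 58.3% and 61.5%, and 21.0% and 15.8% in the same order. Neither overlapped between si-PLANE.2 and the other libraries, and on counts the differences from si-ctrl were -36.3 and -34.1 points. Both exons are in MBNL2-206, the only transcript annotated with the 54-base exon, so the values of the 54-base exon rest on 1 including transcript, annotated for decay. MBNL2-206 also gave most of the including FPKM of the 36-base exon. It held 12.38 of 12.6 and 24.49 of 25.22 in si-ctrl, and 1.45 of 1.66 and 1.15 of 1.35 in si-PLANE.2. The differences of these exons are therefore not separate observations. In MBNL1 the 54-base exon, known to take part in nuclear localisation of the protein, was at 30.8% and 37.5% in si-ctrl, 29.9% and 35.4% in si-PLANE.1 and 25.4% and 20.1% in si-PLANE.2, a difference of -11.4 points on FPKM and -20.1 on counts. The MBNL1 36-base exon overlapped between groups, at 50.2% and 43.0%, 47.9% and 39.7%, and 46.8% and 52.1%.

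The RBFOX2 40-base exon was included at 47.6% and 46.8% in si-ctrl, 48.9% and 47.5% in si-PLANE.1 and 57.9% and 59.8% in si-PLANE.2. Its difference of 11.7 points kept its sign on counts (6.71 points) and over transcripts with the same length in the annotation (15.7 points). For TRA2B the poison exon was at 13.4% and 13.7% in si-ctrl, 21.2% and 19.5% in si-PLANE.1 and 19.1% and 17.4% in si-PLANE.2. This count of included transcripts holds TRA2B-205 and the intron-retaining TRA2B-213, whose si-PLANE.2 levels lay on opposite sides of si-ctrl. On FPKM both siRNA groups lay above si-ctrl, but on counts the si-PLANE.2 difference was -6.39 points. TIA1 has a 66-base exon (chr2:70452460-70452525, minus strand) that carries a stop codon in TIA1-210, a transcript annotated for nonsense-mediated decay, and that was at 13.7% and 2.83% in si-ctrl, 19.96% and 14.4% in si-PLANE.1 and 33.2% and 38.1% in si-PLANE.2. The difference for si-PLANE.2, 27.3 points, was 8.42 points on counts.

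The 95-base exon that follows the pair above in both muscleblind genes was lower after si-PLANE.2, at 64.2% and 46.5% against 67.7% to 73.0% in the other libraries for MBNL1 (chr3:152174056-152174150), and at 51.7% and 55.8% against 62.3% to 78.3% for MBNL2 (chr13:98018713-98018807). The MBNL2 exon is also in MBNL2-206, which gave 12.38 of 15.21 and 24.49 of 31.04 including FPKM in the si-ctrl libraries. In CELF1 a 152-base exon (chr11:47521005-47521156, minus strand) was at 40.9% and 49.97% in si-ctrl, 49.0% and 45.4% in si-PLANE.1 and 30.1% and 31.5% in si-PLANE.2. Its difference of -14.6 points was -31.6 on counts and -2.36 over transcripts of equal length. These values leave out CELF1-203 and CELF1-204, which held 29.6% and 37.3% of the CELF1 FPKM in si-ctrl. Neither is counted as keeping or skipping the exon. The 117-base exon of QKI was at 52.3% and 47.3% in si-ctrl, 48.4% and 53.9% in si-PLANE.1 and 65.9% and 53.1% in si-PLANE.2. Its si-PLANE.2 libraries lay above both si-ctrl libraries (9.70 points, 10.6 over transcripts of equal length and 0.90 on counts) but overlapped with si-PLANE.1. The 33-base exon of TIA1, which separates the main isoforms of that protein, overlapped between si-PLANE.2 and si-ctrl. The 134-base exon of TRA2B was at 59.2% to 66.3% in all 6 libraries. For this exon the difference of si-PLANE.2 from si-ctrl depended on the measure, at 3.50 points on FPKM, -5.15 on counts and 19.2 over transcripts of equal length.

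**Figure D4:**
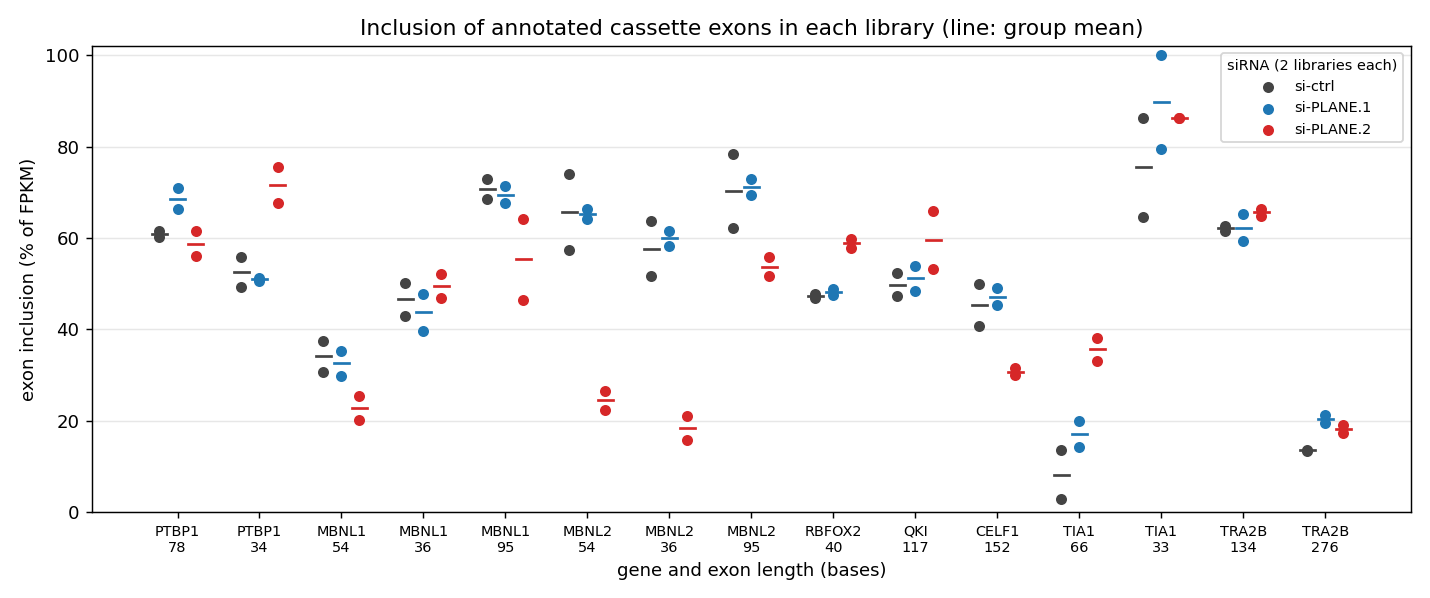
Inclusion of 15 annotated cassette exons of the members in each library, as percent of the FPKM of transcripts that keep or skip the exon, with lines for group means and exons named by gene and length in bases. The MBNL2 exons of 54 and 36 bases are lowest in si-PLANE.2, and the PTBP1 exon of 34, the RBFOX2 exon of 40 and the TIA1 exon of 66 bases are highest there.

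Transcripts annotated as retaining an intron made up less of some members after si-PLANE.2. In PTBP1 their share was 37.1% and 39.2% of the FPKM in si-ctrl, 39.6% and 38.6% in si-PLANE.1 and 21.8% and 17.6% in si-PLANE.2. In TRA2B it was 33.9% and 39.1%, 40.5% and 44.7%, and 22.3% and 27.2%, and in RBFOX2 9.77% and 11.7%, 14.8% and 11.3%, and 0.488% and 1.0%. In these genes both si-PLANE.2 libraries lay below the others, whereas TIA1 (35.8% and 45.3% in si-PLANE.2, 40.6% to 62.0% in the other libraries) and QKI and CELF1 overlapped. How many of all genes showed no overlap was not counted. In the libraries as wholes such transcripts also took less, at 7.79% to 8.12% of all FPKM in si-ctrl and si-PLANE.1 and 4.43% and 4.58% in si-PLANE.2. Of 7472 genes with such transcripts, 71.0% had a lower share after si-PLANE.2, with a median difference of -3.4 points. Histone mRNAs that usually carry no poly(A) tail were lower in the same libraries, as given above, and their part in these differences was not tested.

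**Figure D5:**
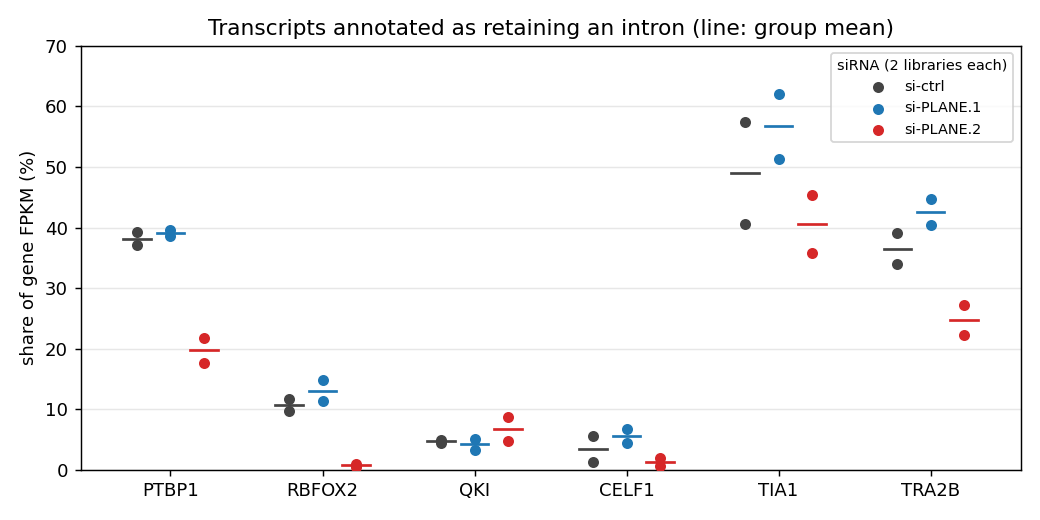
Share of each gene's FPKM in transcripts annotated as retaining an intron, for 6 members in each library, with lines for group means. PTBP1, RBFOX2 and TRA2B are lower in both si-PLANE.2 libraries than in every other library, and the other 3 genes overlap.

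The closest relatives of the members, which can act at the same sites, are of interest beside them. Of 12 paralogs, 6 were tested, and 0 were called after si-PLANE.1 in edgeR, with 2 at an unadjusted p under 0.05 and 1, PTBP2, called by DESeq2. PTBP2, the neuronal relative of PTBP1, carries an exon that PTBP1 represses. It was at 33.0 and 29.1 FPKM among si-ctrl libraries, 72.7 and 58.9 in si-PLANE.1 and 4.12 and 3.26 in si-PLANE.2. The 3 groups did not overlap, with a log2 fold change of 1.00 ± 0.17 after si-PLANE.1 (edgeR adjusted p = 0.241, DESeq2 adjusted p = 0.000621) and -1.69 ± 0.18 after si-PLANE.2 (edgeR adjusted p = 0.000144). PTBP3 went from 90.3 and 76.9 FPKM in si-ctrl to 29.1 and 27.8 in si-PLANE.2 (-1.48 ± 0.10, edgeR adjusted p = 1.85e-05), and TRA2A also fell (-0.52 ± 0.11, edgeR adjusted p = 0.00356, but 0.0644 without si-PLANE.2 replicate 4). TIAL1 (-0.25 ± 0.10, adjusted p = 0.0562), CELF5 (-0.37 ± 0.48, 0.519) and RBFOX3 (0.13 ± 0.17, 0.515) did not pass in edgeR. TIAL1 was called lower in 6 of 12 alternatives, among them limma on FPKM (-0.47, adjusted p = 0.013) and edgeR at a minimum of 2 FPKM (-0.30, adjusted p = 0.0268) or without si-ctrl replicate 1 (adjusted p = 0.0315) or 2 (adjusted p = 0.0366). MBNL3, RBFOX1, CELF2, CELF3, CELF4 and CELF6 lay under the minimum, and RBFOX1 was listed at 0 in every library.

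Of 68 other splicing regulators on a wider list that includes these paralogs, 55 were tested. After si-PLANE.1, 0 were called in edgeR, 5 had an unadjusted p under 0.05, and DESeq2 called PTBP2 alone. After si-PLANE.2, 38 were called, 16 higher and 22 lower (on TPM with limma 6 higher and 33 lower), beside 64.1% of all genes tested, and the median log2 fold change of the 55 was -0.21. YBX1, a cold-shock RNA-binding protein, went from 151 and 147 FPKM in si-ctrl to 421 and 407 in si-PLANE.2 (log2 fold change 1.93 ± 0.10, edgeR adjusted p = 8.62e-06). PUF60, a factor of 3′ splice site recognition (1.73 ± 0.10), and SART1 of the tri-snRNP (1.20 ± 0.10) were also higher in counts, of which SART1 had a negative difference on FPKM (-0.35, limma adjusted p = 0.0963). NOVA2, a neuronal splicing factor, went from 2.88 and 3.64 FPKM in si-ctrl to 0.2 and 0.04 in si-PLANE.2 (-4.73 ± 0.38, edgeR adjusted p = 4.08e-05). A1CF (-1.92 ± 0.19), MSI1 (-1.85 ± 0.34) and SRRM1 (-1.52 ± 0.10) were the next lowest of the called genes that are no paralogs.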

How the data were processed

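RNA from A549 cells 48 h after transfection was sequenced as short reads in 6 libraries. The authors deposited 2 tables, each with an expected count and an FPKM value per transcript and library, and the si-ctrl values are in both. The expected counts the authors gave were not normalized, and the FPKM values had been normalized by the authors for transcript length and depth. The submitters' processing notes name Trimmomatic 0.30, HISAT2 2.0.1, HTSeq 0.6.1, DESeq and hg19. The tool that estimated the counts, the annotation version and the strand setting are not given in the sources used here, so reads shared with antisense or overlapping genes cannot be told apart.

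After rounding to whole numbers, expected counts entered edgeR 4.0.16 in R 4.3.3 (glmQLFit and glmQLFTest with TMM scaling, diffSpliceDGE for transcript usage). Gene values are sums over transcripts, and 16723 transcripts without a gene identifier (3.03% to 3.62% of counts) were left out of them. Features with a mean of at least 0.5 FPKM were tested, at an adjusted p of 0.05. SE is the size of the fold change divided by the root of F. DESeq2 1.42.0, limma 3.58.1 (pseudocounts of 1 and 0.1), other filters and scalings, a replicate block and leaving out each library were alternatives. Replicates of a group differed by more than sampling noise (chi-square per degree of freedom of at least 4.93). The scripts were tested on simulated data.

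Transcript names and exon structures are of GENCODE version 44 on GRCh37, which held 157 of the 162 transcripts, 133 of them with the deposited length. Cassette exons were internal exons of at most 300 bases, coding in some transcript, with group means between 5% and 95% and at least 5 FPKM behind each value. Exon inclusion and its alternatives were chosen after seeing the data.

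The members and lists were chosen with earlier results of these data known. Named were all members, their transcripts at 10% of the gene in any group or past the test (53), the paralogs, and up to 4 other regulators per siRNA and direction with the largest change, of which 1 is not reported here. Named transcripts of ESRP1 and ESRP2 held few counts and are given as gene totals, as are some that did not pass the test.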

Additional observations from a re-analysis of the deposited data

Results flagged for a closer look

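The siRNAs differed in their change of 6 members by the test of the difference itself (edgeR, all 6 libraries, log2 difference of si-PLANE.2 minus si-PLANE.1). The differences were 0.82 for PTBP1, -1.40 for MBNL1, -1.56 for MBNL2, -0.71 for RBFOX2, -1.05 for QKI and -0.68 for CELF1, with adjusted p from 1.28e-05 to 0.000404 in edgeR. All but PTBP1 passed in the same direction under each of the 11 alternatives run. In this comparison 64.4% of all genes tested differed, and the siRNA and the preparation of the si-PLANE.2 libraries cannot be told apart.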

How the results depend on the processing

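The calls of MBNL1, MBNL2, RBFOX2, QKI and CELF1 as lower after si-PLANE.2 held under each of the 12 alternatives run for that comparison, with log2 fold changes of -1.82 to -1.14, -2.03 to -1.50, -0.87 to -0.68, -0.97 to -0.80 and -0.82 to -0.66. Other scalings moved the all-gene median for si-PLANE.2 from -0.03 in counts to -0.22 on FPKM and -0.37 on TPM, and the share of called genes that were higher from 49.7% to 37.1% and 28.6%. Between the siRNAs that median was -0.06, -0.33 and -0.54.

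Genes called after si-PLANE.1, 5 in the reported test, were 125 with DESeq2, 1 with limma on FPKM and on TPM, 3 with a pseudocount of 0.1, 17 with all 6 libraries and 1 to 5 when a library was left out. With the replicate block, 1225 genes were called, of which PTBP1 was the 1 member (-0.42, edgeR adjusted p = 0.00802), and 3 of the 55 other regulators were called, PTBP2 higher (adjusted p = 1.3e-10) and NONO and YBX1 lower. Libraries of si-ctrl and of si-PLANE.1 share the numbers 1 and 2 without a named batch, and their replicate differences correlated at 0.261 across 14535 genes. No paired analysis was possible for si-PLANE.2 because it shares no replicate number with si-ctrl. Transcripts called after si-PLANE.1 were 397 with DESeq2, 2 of them members. After si-PLANE.2, 34 member transcripts were called with limma on FPKM, and leaving out a library gave 0 to 11804 transcripts and 0 to 22 member transcripts. Genes with shifted transcripts after si-PLANE.1 (96) were 44 at a minimum of 2 FPKM, 51 with limma, 4 with the replicate block and 22 to 35 without a library. Members with shifted transcripts after si-PLANE.2 (6) were 2 to 8 without a library. Where a lone library was left in a group, its spread was taken from the other group.

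These values changed sign, in the order limma on FPKM, on TPM and on FPKM with a pseudocount of 0.1, and the cause was not tested. After si-PLANE.2 they were PTBP1 (-0.27, -0.43, -0.27), TIA1 (-0.061, -0.22, -0.062), TRA2B (0.27, 0.11, 0.27) and SART1 (-0.35, -0.50, -0.35), and RBFOX3 on TPM (-0.051). After si-PLANE.1 they were RBFOX2 (0.12, 0.19, 0.12, and 0.0022 at a minimum of 2 FPKM), ESRP1 (-0.064, -0.047, -0.087) and CELF1 (0.11, 0.19, 0.11), and MBNL2 on TPM (0.0010). Between the siRNAs PTBP1 changed sign on FPKM (-0.044) and TPM (-0.28). When 1 library was left out, the values after si-PLANE.1 ranged over 0 for RBFOX2 (-0.051 to 0.033), MBNL2 (-0.51 to 0.066) and CELF1 (-0.11 to 0.011), and between the siRNAs for TIA1 (-0.21 to 0.032). Among transcripts after si-PLANE.2 the same held for MBNL1-205 (-0.28 to 0.73, and -0.033 with limma), QKI-202 (-0.32 to 0.25, and 0.0079 with no minimum), MBNL2-205 (-0.86 to 0.35), MBNL1-219 (-0.013 to 8.86) and TRA2B-204 (-0.013 to 0.34, and -0.070 with limma), all of which missed the reported test.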
